A study of Homo sapiens with 8 samples.

Results

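The genes described here are 9 that act at the surface of cells and vessels on plasmin and on the start of clotting: the plasminogen activators PLAU and PLAT, the urokinase receptor PLAUR, the protease inhibitors SERPINE2 and SERPINB2, tissue factor (F3), its inhibitor TFPI, the related inhibitor TFPI2, and thrombomodulin (THBD). They were taken by gene symbol, and all 9 were among the 23686 symbols listed for each library and among the 14249 genes with enough reads to test. RNA was sequenced from human cell lines of triple-negative breast cancer in 4 groups of 2 libraries: MDA-MB-231 siGPX1, MDA-MB-231 control, Hs578T siGPX1 and Hs578T control (the labels write HS578T). GPX1 is a glutathione peroxidase that reduces hydrogen peroxide. The titles of the depleted samples carry an siRNA prefix while their genotype tag calls them knockouts, and neither the kind of control, the number of siRNAs nor the time after transfection is given. Each line stands for 1 tumour, and the series title places GPX1 in the metastasis of this cancer.

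Plasminogen, a precursor made by the liver, is cut to plasmin by urokinase (PLAU) or by tissue plasminogen activator (PLAT). Urokinase works while bound to its receptor, and serpins trap both activators. Tissue factor binds factor VIIa and starts clotting, TFPI blocks that complex, and thrombomodulin turns thrombin from a clotting enzyme into an activator of protein C. In breast cancer, urokinase and its receptor are known for their part in matrix breakdown and spread, and MDA-MB-231 is widely used as a line rich in both.

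The libraries held 12905808 to 14216365 expected counts and detected 15584 to 15817 genes each. The members ranged from 4 counts for SERPINB2 to 19313 for SERPINE2, and THBD and TFPI2 in Hs578T rested on 27 to 172 counts per library. Expected counts are RSEM's estimates of reads per gene. Levels are given as normalised counts (CPM) after TMM scaling when 1 gene is followed across libraries, and as the deposited TPM values, which allow for length, when genes are compared with each other. GPX1 itself averaged 7.03 ± 0.351 CPM in MDA-MB-231 siGPX1 libraries and 201 ± 10.5 CPM in MDA-MB-231 controls (SD, n = 2 each), a 28.6-fold lower level. It averaged 3.49 ± 0.108 CPM in Hs578T siGPX1 libraries and 84.1 ± 0.121 CPM in Hs578T controls (SD, n = 2 each), a 24-fold lower level. The 2 Hs578T siGPX1 libraries differed from each other more than the other pairs did, at an average chi-square of 4.05 per gene where sampling noise alone gives 1, against 1.35 for MDA-MB-231 siGPX1, 1.71 for MDA-MB-231 control and 1.96 for Hs578T control. Nothing in the labels says that replicates were separate cultures, so a p-value here reflects the spread of these libraries alone, possibly a technical one. In bulk samples fewer cells of a kind and less RNA per cell cannot be told apart.

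Sequence around the members was searched for short motifs, and some of the matches are printed below. RefSeq promoter windows (GRCh38.p14, 250 bases before to 50 after a gene start) matched 7 of the 9 members with 9 windows. The AP-1 motif, the site of FOS and JUN factors, was searched as TGANTCA on both strands. N stands for any base, which makes this form looser than the consensus site. It lay in the windows of 4 members, and 7.71% of all 35116 windows of that length held it. Those 4 are shown with the motif in capitals, 5′ to 3′ on the strand of the gene.
F3 (chr1:94541953-94541992, minus strand): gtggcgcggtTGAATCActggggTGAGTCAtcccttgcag
PLAUR (chr19:43670337-43670367, minus strand): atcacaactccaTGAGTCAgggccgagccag
TFPI2 (chr7:93890822-93890852, minus strand): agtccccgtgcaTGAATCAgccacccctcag
SERPINB2 (chr18:63887591-63887621, plus strand): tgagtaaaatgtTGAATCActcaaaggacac
F3 carried a pair of matches starting 223 and 210 bases before its start, 13 bases apart, where PLAUR, TFPI2 and SERPINB2 carried 1 each, at 186, 87 and 102 bases before theirs. The F3 match at 210 bases and that of PLAUR read TGAGTCA, and the others TGAATCA. The TATA box letters (TATAAA), also searched on both strands, were in 11.53% of all windows. The SERPINB2 window held them on the strand of the gene, 30 bases before the start. In the F3 window, 28 bases before the start, they lay on the opposite strand, so that the strand of the gene reads TTTATA. The 2 windows of PLAU, the 2 of SERPINE2 and that of TFPI had no AP-1 match, which says only that these letters are not within 250 bases.

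The 3′ UTRs were searched for 2 kinds of short sequence. The heptamers GGGCATC and GGCATCA overlap by 6 letters in 5 of 6 GPX1 transcripts. They were picked in an earlier search of these same data, so their presence is a description only. In the longest GENCODE 29 3′ UTR of each of 13167 tested genes, GGGCATC occurred in 10.02% and either heptamer in 17.4%. The nonamer TTATTTATT, a core of the AU-rich elements through which unstable mRNAs are degraded, occurred in 9.4%. The matches of the members are in capitals.
PLAU, chromosome 10, heptamer at base 293 of 932: aaaaagggcaGGGCATCtcctgtgcatg
THBD, chromosome 20, heptamer at base 2126 of 2144: acccttcctgGGGCATCtggcgaatccc
THBD, chromosome 20, overlapping nonamers at bases 1694 and 1698: gtacatagTTATTTATTTATTggagataa
SERPINB2, chromosome 18, nonamer at base 277 of 585: ttttactttgTTATTTATTattttatat
PLAU and THBD were thus the members with the heptamer, 1 copy each. A match is not evidence of a working site.

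The lines differed in every member before any depletion. In MDA-MB-231 controls the order by TPM was PLAU, F3, PLAUR, PLAT, TFPI2, TFPI, THBD, SERPINE2 and SERPINB2, with means of 538, 498, 196, 174, 172, 81.0, 66.2, 19.4 and 0.42 TPM. PLAT at 173 and 175 TPM and TFPI2 at 173 and 171 TPM were neighbours whose libraries overlapped. In Hs578T controls SERPINE2 led with 1563 ± 24.5 TPM (SD, n = 2), rank 73 of 16466 genes with any TPM, followed by PLAU at 339, TFPI at 250.1, F3 at 108, PLAUR at 101, PLAT at 58.4, TFPI2 at 12.4, SERPINB2 at 1.92 and THBD at 1.34 TPM. TFPI stood above F3 in Hs578T controls and below it in MDA-MB-231 controls.

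Between the controls, the quasi-likelihood test of edgeR, Benjamini-Hochberg adjusted over all genes tested, called 6 members higher and 3 lower in MDA-MB-231 than in Hs578T. Of all genes tested, 43.0% were called higher and 38.6% lower in the same comparison, so a called difference between the lines was common. The median log2 change of the 9 was 0.83, against 0.049 over all genes. THBD was 44.9-fold higher in MDA-MB-231 (log2 change 5.49 ± 0.096 SE, edgeR adjusted p = 6.75e-17), TFPI2 12.6-fold higher (3.66 ± 0.078) and F3 4.21-fold higher (2.07 ± 0.048). PLAT was 2.71-fold, PLAUR 1.78-fold and PLAU 1.44-fold higher in MDA-MB-231. SERPINE2 was 88.5-fold lower (log2 change -6.47 ± 0.052, edgeR adjusted p = 1.82e-20), TFPI 3.21-fold lower and SERPINB2 4.97-fold lower in MDA-MB-231. The log2 change of SERPINB2, -2.31, was -1.03 on the log2(TPM + 1) scale, which compresses low values. The directions did not divide by role: TFPI2 and THBD, both of which restrain proteases or clotting, stood with F3 and the activators.

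**Figure D1:**
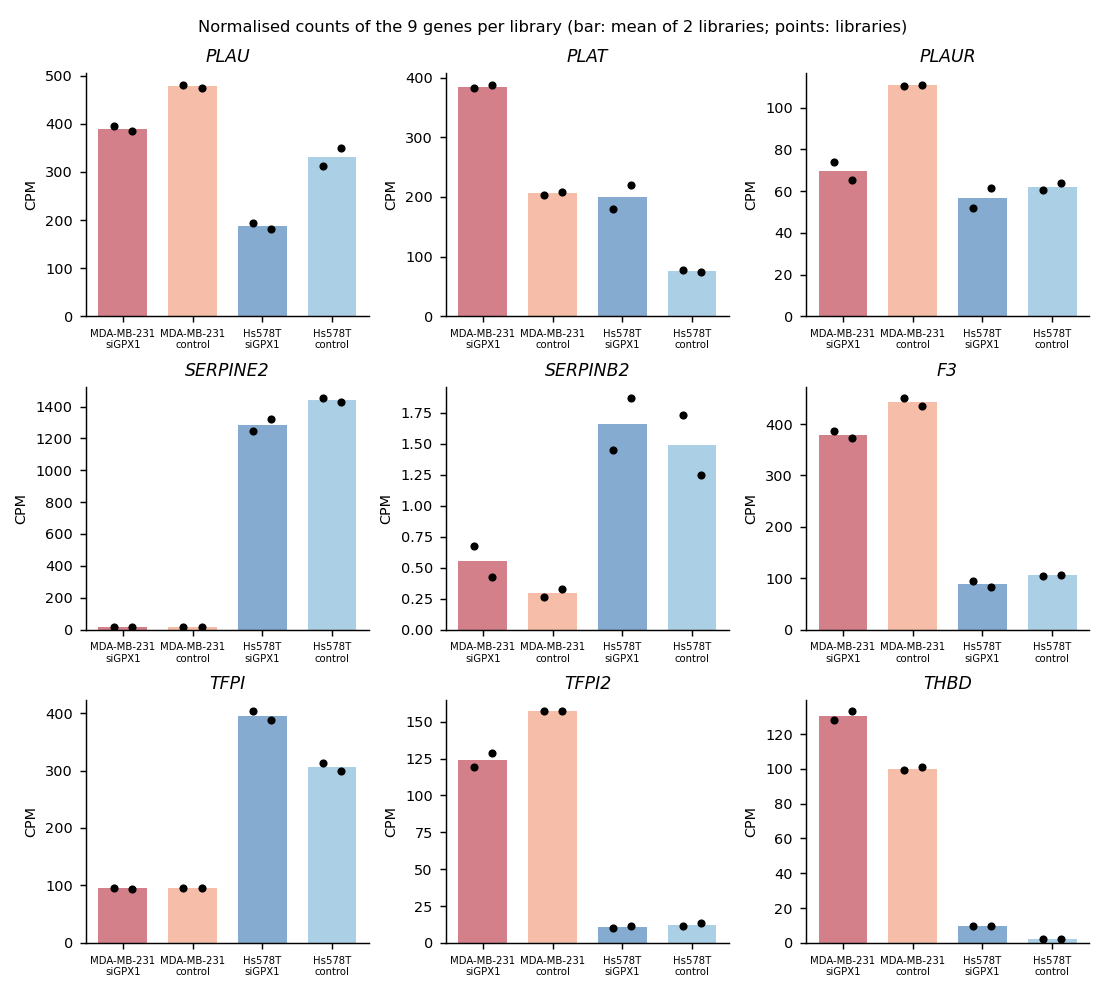
Normalised counts (CPM, linear axes from 0) of the 9 members in the 4 groups; bars are means of 2 libraries and points are the libraries. PLAT was at 382 and 388 CPM in MDA-MB-231 siGPX1 libraries and 204 and 208 CPM in MDA-MB-231 controls, and SERPINE2 had 1249.6 to 1453 CPM in the 4 Hs578T libraries.

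After GPX1 depletion 6 of 9 members passed the test in each line. In MDA-MB-231, 2 were called higher and 4 lower, where 20.7% of all genes were called higher and 21.9% lower. In Hs578T, 3 were called higher and 3 lower, where 28.6% of all genes were called higher and 22.1% lower. The balance over all genes depended on the setting: in MDA-MB-231, 2950 higher and 3116 lower became 3652 and 2544 with a stricter filter (5 CPM in 2 libraries) and 3440 and 2757 with DESeq2 size factors, and in Hs578T 4074 and 3149 became 3363 and 3457 with the stricter filter and 3367 and 3563 on the log2(TPM + 1) scale. The members' counts were again 2 higher and 4 lower in MDA-MB-231 and 3 and 3 in Hs578T with the stricter filter and with DESeq2 size factors. The median log2 change of the 9 was -0.16 in MDA-MB-231 and -0.13 in Hs578T, against 0.0 and 0.041 over all genes. PLAT and THBD were higher and PLAU and F3 lower in both lines. PLAUR and TFPI2 passed in MDA-MB-231 alone and SERPINE2 and TFPI in Hs578T alone, and of these 4 the difference between the lines was itself called for PLAUR and TFPI. That test of the difference, the change in MDA-MB-231 minus the change in Hs578T, called 1 member higher and 4 lower, against 6.32% and 10.7% of all genes. With DESeq2 size factors in place of TMM the split over all genes was 1251 higher and 1000 lower, in place of 900 and 1528, while the members' calls were again 5.

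The activators moved in opposite directions. PLAT, on chromosome 8, which makes the tissue-type activator, had 382 and 388 CPM in MDA-MB-231 siGPX1 libraries, against 204 and 208 CPM in MDA-MB-231 controls. It had 179 and 219.6 CPM in Hs578T siGPX1 libraries, against 77.3 and 74.8 CPM in Hs578T controls. Both siGPX1 libraries lay above both controls in each line. The rise was 1.87-fold in MDA-MB-231 (log2 change 0.90 ± 0.061 SE, edgeR adjusted p = 9.88e-09) and 2.62-fold in Hs578T (1.39 ± 0.072, edgeR adjusted p = 3.01e-10), and the difference of -0.49 ± 0.095 passed (edgeR adjusted p = 0.00221). By rank, PLAT stood 489th of 16262 genes by mean TPM in MDA-MB-231 siGPX1 and 1110th of 16328 in its control, and 1232nd of 16419 in Hs578T siGPX1 and 3329th of 16466 in its control.

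PLAU, which makes urokinase, had 395 and 385 CPM in MDA-MB-231 siGPX1 libraries, against 481 and 475 CPM in MDA-MB-231 controls. In Hs578T siGPX1 libraries it had 194 and 182 CPM, against 312 and 349.7 CPM in Hs578T controls. No siGPX1 library reached a control of its line. PLAU fell 1.23-fold in MDA-MB-231 (log2 change -0.29 ± 0.046, edgeR adjusted p = 8.36e-05) and 1.76-fold in Hs578T (-0.81 ± 0.05, edgeR adjusted p = 2.08e-09), and the fall was larger in Hs578T, with a difference of 0.52 ± 0.068 (edgeR adjusted p = 8.72e-05). Its 3′ UTR holds the heptamer listed above at base 293, and a link to the change was not tested. C10orf55 overlaps PLAU on the opposite strand and had 36 to 85 counts per library, against 2242 to 7335 for PLAU. Whether strand was used in counting is not given in the sources used here, so that reads of the 2 genes cannot be told apart.

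Set side by side, the opposite changes brought the activators close to each other. The ratio of PLAU to PLAT by TPM was 1.38 and 1.32 in MDA-MB-231 siGPX1 libraries, against 3.14 and 3.04 in MDA-MB-231 controls. It was 1.45 and 1.10 in Hs578T siGPX1 libraries, against 5.39 and 6.23 in Hs578T controls. The ratio was lower after depletion in every library of both lines, and the libraries of the depleted lines overlapped where those of the control lines did not. Ratios carry no test here, being made from members tested above.

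**Figure D2:**
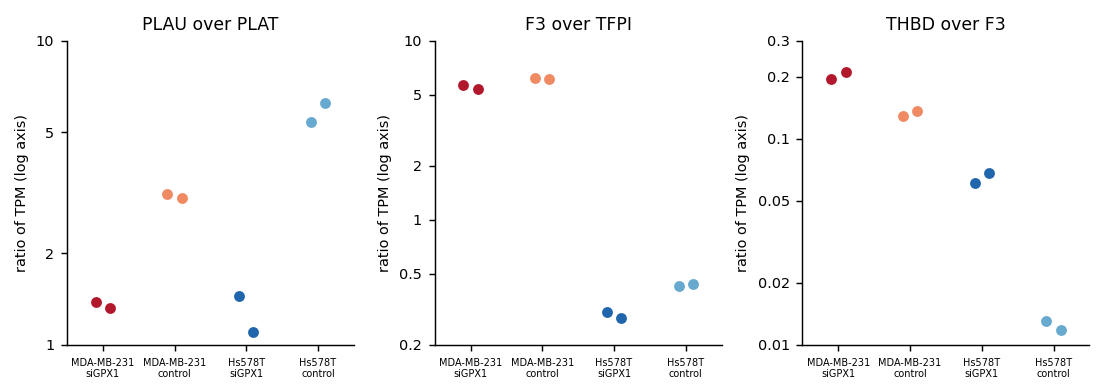
Ratios of TPM values within each library on log axes, 2 points per group. PLAU over PLAT was 1.38 and 1.32 in MDA-MB-231 siGPX1 and 1.45 and 1.10 in Hs578T siGPX1, below the controls of both lines, while F3 over TFPI separated the lines more than the depletion did.

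PLAUR, the receptor that holds urokinase at the cell surface, had 74.1 and 65.2 CPM in MDA-MB-231 siGPX1 libraries, against 110.5 and 111 CPM in MDA-MB-231 controls. Hs578T siGPX1 libraries had 52.0 and 61.5 CPM and Hs578T controls 60.6 and 63.7 CPM. The groups were apart in MDA-MB-231 and overlapped in Hs578T. PLAUR fell 1.59-fold in MDA-MB-231 (log2 change -0.67 ± 0.07, edgeR adjusted p = 1.42e-06), while in Hs578T its log2 change was -0.13 with a 95% interval of -0.30 to 0.04 (edgeR adjusted p = 0.196). The difference was -0.54 ± 0.11 (edgeR adjusted p = 0.00238). Both statements lean on single libraries: without Hs578T siGPX1 replicate 2 the Hs578T change was -0.26 and passed (edgeR adjusted p = 0.0109), and without MDA-MB-231 siGPX1 replicate 2 the difference was -0.35 and did not (edgeR adjusted p = 0.0715). Urokinase and its receptor thus had unequal changes: the ratio of PLAU to PLAUR by TPM was 3.37 and 3.73 in MDA-MB-231 siGPX1 libraries, against 2.77 and 2.72 in MDA-MB-231 controls, and 2.33 and 1.84 in Hs578T siGPX1 libraries, against 3.24 and 3.45 in Hs578T controls. It was higher after depletion in MDA-MB-231 and lower in Hs578T.

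SERPINE2, or protease nexin-1, inhibits thrombin, urokinase and plasmin. In MDA-MB-231 siGPX1 libraries it had 15 and 14.1 CPM, against 15.9 and 16.6 CPM in MDA-MB-231 controls. In Hs578T siGPX1 libraries it had 1249.6 and 1320.5 CPM, against 1453 and 1429 CPM in Hs578T controls. The depleted libraries lay below the controls in both lines, at levels far apart. The log2 change was -0.16 ± 0.084 in MDA-MB-231 (edgeR adjusted p = 0.182) and -0.17 ± 0.035 in Hs578T, 1.12-fold lower (edgeR adjusted p = 0.000913). The change in MDA-MB-231 passed on the log2(TPM + 1) scale (limma adjusted p = 0.026), and the difference between the lines had an interval of -0.19 to 0.21 (edgeR adjusted p = 0.997).

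SERPINB2, the plasminogen activator inhibitor best known from monocytes and placenta, was close to the limit of detection. Its counts were 10 and 6 in MDA-MB-231 siGPX1 libraries and 4 and 5 in MDA-MB-231 controls, and 17 and 23 in Hs578T siGPX1 libraries and 23 and 16 in Hs578T controls. A change was not detectable at this depth in either line, with intervals on the log2 scale of -0.25 to 2.04 in MDA-MB-231 (edgeR adjusted p = 0.207) and -0.55 to 0.86 in Hs578T (edgeR adjusted p = 0.745). SERPINB2 has both an AP-1 match and an AU-rich nonamer among the sequences above.

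On the clotting side, tissue factor was lower by about the same amount in each line. F3 had 386 and 372 CPM in MDA-MB-231 siGPX1 libraries, against 450.4 and 436 CPM in MDA-MB-231 controls, and 94.5 and 83.5 CPM in Hs578T siGPX1 libraries, against 105 and 106 CPM in Hs578T controls. Neither line's groups overlapped. F3 fell 1.17-fold in MDA-MB-231 (log2 change -0.23 ± 0.042, edgeR adjusted p = 0.000421) and 1.18-fold in Hs578T (-0.24 ± 0.055, edgeR adjusted p = 0.00157). The difference of 0.016 had an interval of -0.13 to 0.16 (edgeR adjusted p = 0.932). The call in MDA-MB-231 was lost without MDA-MB-231 siGPX1 replicate 2, at -0.15 (edgeR adjusted p = 0.0558).

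TFPI, on chromosome 2, which blocks the complex of tissue factor and factor VIIa, had 95.5 and 94.4 CPM in MDA-MB-231 siGPX1 libraries and 96.0 and 94.8 CPM in MDA-MB-231 controls. In Hs578T siGPX1 libraries it had 403 and 388 CPM, against 313 and 300.1 CPM in Hs578T controls. The groups overlapped in MDA-MB-231 and were apart in Hs578T. The change in MDA-MB-231 had a 95% interval of -0.10 to 0.09 on the log2 scale (edgeR adjusted p = 0.936), and in Hs578T TFPI rose 1.29-fold (log2 change 0.37 ± 0.036, edgeR adjusted p = 4.32e-07). The difference of -0.38 ± 0.057 passed (edgeR adjusted p = 0.000322).

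The mean transcript length that RSEM assigned to TFPI, weighted by the abundance of its 2 listed transcripts, was 3332.1 and 3248.7 bases in MDA-MB-231 siGPX1 libraries, against 3147.9 and 3143.2 bases in MDA-MB-231 controls. It was 3083.8 and 3137.8 bases in Hs578T siGPX1 libraries, against 3017.4 and 2947.0 bases in Hs578T controls. The longer transcript therefore had the larger estimated share after depletion in both lines, also in MDA-MB-231, where the gene's total had no called change. The shift was not tested. On the log2(TPM + 1) scale, which allows for length, the TFPI rise in Hs578T was 0.25 (limma adjusted p = 0.00104), against 0.37 in counts. In MDA-MB-231 the change of TFPI did not pass on either scale. The ratio of F3 to TFPI by TPM was 5.67 and 5.39 in MDA-MB-231 siGPX1 libraries, against 6.21 and 6.08 in MDA-MB-231 controls. In Hs578T, where F3 was lower and TFPI higher, it was 0.304 and 0.284 in siGPX1 libraries, against 0.426 and 0.437 in controls.

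TFPI2, a matrix-bound inhibitor of plasmin and other serine proteases, had 119.6 and 129 CPM in MDA-MB-231 siGPX1 libraries, against 157 and 157 CPM in MDA-MB-231 controls. It had 9.86 and 11.6 CPM in Hs578T siGPX1 libraries and 11.4 and 13.5 CPM in Hs578T controls. The MDA-MB-231 groups were apart and the Hs578T groups overlapped. TFPI2 fell 1.26-fold in MDA-MB-231 (log2 change -0.34 ± 0.055, edgeR adjusted p = 0.00014). In Hs578T the log2 change was -0.20, with an interval of -0.46 to 0.05 (edgeR adjusted p = 0.176), and the difference of -0.13 did not pass (edgeR adjusted p = 0.564).

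THBD, or thrombomodulin, the endothelial receptor that makes thrombin activate protein C, had the largest change of the 9 in Hs578T. It had 128 and 133 CPM in MDA-MB-231 siGPX1 libraries, against 99.3 and 101 CPM in MDA-MB-231 controls. Its counts in Hs578T were 116 and 120 in siGPX1 libraries, against 31 and 27 in controls, or 9.86 and 9.77 CPM against 2.33 and 2.12 CPM. All depleted libraries lay above the controls of their line, and all MDA-MB-231 libraries above all Hs578T libraries. THBD rose 1.30-fold in MDA-MB-231 (log2 change 0.38 ± 0.051, edgeR adjusted p = 1.78e-05) and 4.39-fold in Hs578T (2.14 ± 0.15, edgeR adjusted p = 7.8e-09), a difference of -1.75 ± 0.16 (edgeR adjusted p = 2.81e-06). THBD, like PLAU, holds the heptamer listed above, and a link to the change of either gene was not tested. The ratio of THBD to F3 by TPM was 0.195 and 0.211 in MDA-MB-231 siGPX1 libraries, against 0.129 and 0.137 in MDA-MB-231 controls, and 0.0613 and 0.0687 in Hs578T siGPX1 libraries, against 0.0131 and 0.0118 in Hs578T controls.

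Since THBD and TFPI are typical of endothelium and other members of blood cells, markers of those cells were summed. The 10 endothelial markers summed to 61.6 to 64.3 CPM in MDA-MB-231 siGPX1 libraries, against 78.9 to 79.1 CPM in MDA-MB-231 controls, and to 29.2 to 33.3 CPM in Hs578T siGPX1 libraries, against 19.9 to 20.4 CPM in Hs578T controls. The sum was lower with depletion in MDA-MB-231 and higher in Hs578T, with 4 of 10 markers over 1 CPM in each group except Hs578T control, which had 3. CDH5 and VWF, which define endothelium, averaged at most 0.0324 and 0.165 CPM in any group, but other listed markers were expressed. ESAM led in MDA-MB-231, at 35.7 CPM in siGPX1 and 42.2 CPM in controls, with ROBO4 next in both groups. Of the markers over 1 CPM there, KDR alone was higher with depletion (4.16 against 2.06 CPM). In Hs578T siGPX1 and control, ERG averaged 18.2 and 11.2 CPM and PECAM1 10.1 and 5.71 CPM. Of the markers over 1 CPM in that line, ROBO4 alone was lower with depletion (1.5 against 2.15 CPM). The 12 leukocyte and megakaryocyte markers summed to 13.7 to 14.9 CPM in MDA-MB-231 siGPX1 libraries, against 17.8 to 19.4 CPM in MDA-MB-231 controls, and to 10.7 to 11.4 CPM in Hs578T siGPX1 libraries, against 18.2 to 19.2 CPM in Hs578T controls, with 2 of 12 over 1 CPM in each group and TYROBP, CD3E and PPBP at 0. Those 2 went opposite ways: CSF1R averaged 5.67 CPM in MDA-MB-231 siGPX1 and 14.0 CPM in its control, and 3.87 CPM in Hs578T siGPX1 and 12 CPM in its control, whereas CD14 averaged 7.52 and 3.76 CPM in MDA-MB-231 siGPX1 and control, and 6.4 and 4.99 CPM in Hs578T siGPX1 and control. The 10 breast epithelial markers summed to 1845 to 1883 CPM in MDA-MB-231 siGPX1 libraries, against 1265 to 1274 CPM in MDA-MB-231 controls, and to 748 to 785 CPM in Hs578T siGPX1 libraries, against 304 to 317 CPM in Hs578T controls. The 10 mesenchymal markers summed to 3227 to 3259.6 CPM in MDA-MB-231 siGPX1 libraries, against 2570.2 to 2582 CPM in MDA-MB-231 controls, and to 69685 to 78742 CPM in Hs578T siGPX1 libraries, against 57123 to 57798 CPM in Hs578T controls. Both the epithelial and the mesenchymal sum were higher with depletion in both lines, but not every gene of the lists was. FN1 made up most of the Hs578T mesenchymal sum, at 51431 CPM in siGPX1 libraries and 38073 CPM in controls. THY1 was lower with depletion in Hs578T (388 against 927 CPM) and CLDN4 in MDA-MB-231 (79.3 against 107 CPM). ZEB1 was lower in MDA-MB-231 (80.8 against 91.9 CPM) and in Hs578T (99.6 against 118 CPM). Hs578T is labelled epithelial. It had all 10 mesenchymal markers over 1 CPM, and EPCAM at 0.0832 CPM in siGPX1 libraries and 0.0784 CPM in controls. Of the 10 epithelial markers, 4 were over 1 CPM in each Hs578T group. In siGPX1 and control these were KRT18 at 583 and 190.2 CPM, KRT17 at 119 and 70.9 CPM, KRT14 at 32.9 and 24.7 CPM, and KRT8 at 29.9 and 23.0 CPM. The part of any of these sums in the changes of the members was not tested.

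**Figure D3:**
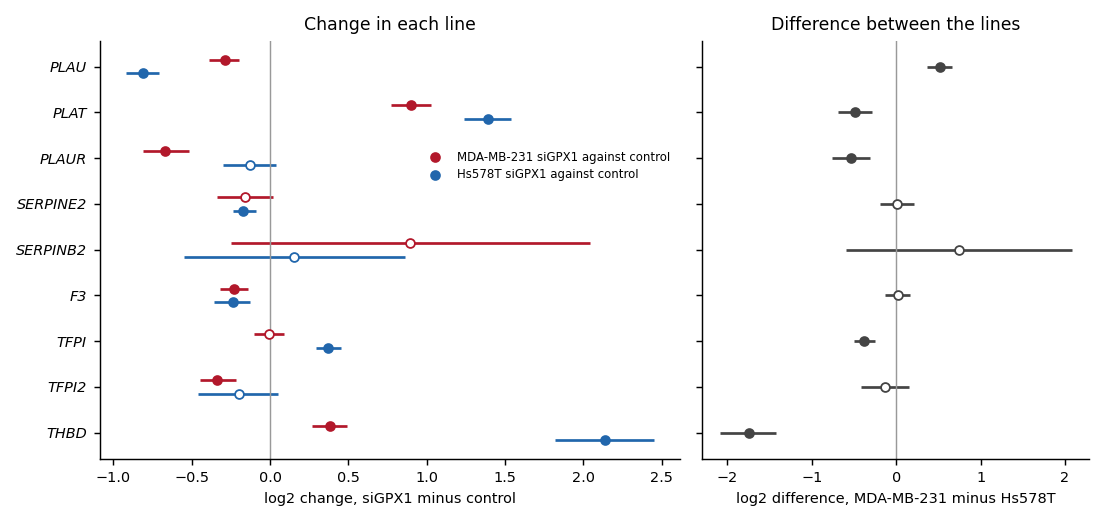
Log2 change of each member with its 95% interval, siGPX1 minus control in each line (left) and the change in MDA-MB-231 minus that in Hs578T (right); filled points passed the test at an adjusted p under 0.05 and open points did not. PLAT and THBD were higher and PLAU and F3 lower in both lines, and the THBD difference of -1.75 stands furthest from 0.

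The order of the members by level differed from that of the controls in both lines. In MDA-MB-231 siGPX1 libraries PLAU at 448 and 434 TPM and F3 at 436 and 419 TPM overlapped, PLAT followed at 327 ± 2.76 TPM, and TFPI2 at 137 and PLAUR at 125 TPM overlapped below it, with THBD at 86.7 and TFPI at 77.4 TPM after them. PLAT thus stood above PLAUR, its neighbour in the controls, and THBD above TFPI. In Hs578T siGPX1 libraries SERPINE2 led at 1343 ± 40.9 TPM, with TFPI at 298 ± 14.6 TPM now above PLAU at 185 ± 10.1 TPM (SD, n = 2 each). PLAT at 147 TPM had passed PLAUR and F3, whose libraries overlapped at means of 89.7 and 87.8 TPM, and THBD at 5.69 TPM had passed SERPINB2 at 2.0 TPM.

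The partners of the members show how much of either cascade these cells transcribe. The plasminogen system list of 20 further genes had 14 with enough reads to test, of which 6 were higher and 1 lower in MDA-MB-231 siGPX1, and 6 higher and 3 lower in Hs578T siGPX1. Over all genes 20.7% were called higher and 21.9% lower in MDA-MB-231, and 28.6% higher and 22.1% lower in Hs578T. The list's median log2 change was 0.10 in MDA-MB-231 and 0.16 in Hs578T, against 0.0 and 0.041 over all genes. Plasminogen itself (PLG) averaged 0.0337 CPM in MDA-MB-231 siGPX1 and 0.23 CPM in MDA-MB-231 controls and was at 0 in Hs578T, so the substrate of the activators was hardly transcribed. PLGRKT, a plasminogen receptor, averaged 8.93 ± 0.805 CPM in MDA-MB-231 siGPX1 libraries and 9.71 ± 0.808 CPM in MDA-MB-231 controls, and 16.0 ± 1.45 CPM in Hs578T siGPX1 libraries and 19.6 ± 0.676 CPM in Hs578T controls (SD, n = 2 each). Its log2 change of -0.12 in MDA-MB-231 did not pass (edgeR adjusted p = 0.457), and it fell in Hs578T (-0.29 ± 0.10, edgeR adjusted p = 0.0256).

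ANXA2 and S100A10, whose complex binds plasminogen and tissue plasminogen activator at the membrane, and ENO1, a glycolytic enzyme that also serves as a plasminogen receptor, were among the genes that rose. ANXA2 averaged 663 ± 12.3 CPM in MDA-MB-231 siGPX1 libraries and 555 ± 8.31 CPM in MDA-MB-231 controls, and 789 ± 19.0 CPM in Hs578T siGPX1 libraries and 596 ± 15.6 CPM in Hs578T controls (SD, n = 2 each). Its log2 change was 0.26 ± 0.035 in MDA-MB-231 and 0.40 ± 0.035 in Hs578T. ENO1 rose 1.13-fold in MDA-MB-231 (0.17 ± 0.038) and 1.48-fold in Hs578T (0.56 ± 0.038), a difference of -0.39 (edgeR adjusted p = 0.000125). The change of S100A10 in MDA-MB-231, 0.06, did not pass (edgeR adjusted p = 0.18), in Hs578T it rose 1.30-fold (0.37 ± 0.036), and the difference of -0.31 passed (edgeR adjusted p = 0.000442). ANXA2 and ENO1 have processed pseudogenes with which RSEM may have shared their reads.

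The endocytic receptors that clear complexes of activator and inhibitor went separate ways. LRP1 averaged 82.8 ± 1.53 CPM in MDA-MB-231 siGPX1 libraries and 69.9 ± 1.24 CPM in MDA-MB-231 controls, and 262 ± 35.6 CPM in Hs578T siGPX1 libraries and 306 ± 23.6 CPM in Hs578T controls (SD, n = 2 each). It rose in MDA-MB-231 (log2 change 0.24 ± 0.084, edgeR adjusted p = 0.0287) and fell in Hs578T (-0.23 ± 0.067, edgeR adjusted p = 0.00987). The difference of 0.47 passed (edgeR adjusted p = 0.00679) but not on the log2(TPM + 0.1) scale (limma adjusted p = 0.0525). The fit pools the spread over all groups, and LRP1 varied more between the Hs578T libraries, so its standard error there may be too small. VLDLR, of the same family, rose in both, by 0.39 ± 0.093 in MDA-MB-231 and 0.41 ± 0.073 in Hs578T. MRC2, a collagen receptor that associates with the urokinase receptor, fell in both, by 0.31 ± 0.057 in MDA-MB-231 and 0.11 ± 0.041 in Hs578T. Of the proteases that activate urokinase, ST14 (matriptase) rose 1.97-fold in MDA-MB-231, at 9.94 ± 0.723 CPM in siGPX1 libraries and 5.03 ± 0.125 CPM in controls (edgeR adjusted p = 0.000464; limma adjusted p = 0.0546 on the log2(TPM + 0.1) scale), and was at or near 0 in Hs578T. CTSB (cathepsin B) was 1.08-fold higher in MDA-MB-231 and 1.09-fold higher in Hs578T.

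Between the controls the list had 3 genes higher and 9 lower in MDA-MB-231 than in Hs578T, with a median log2 change of -0.74, against 43.0% and 38.6% of all genes and a median of 0.049. MRC2 was 6.37-fold, LRP1 4.39-fold and CTSB 2.77-fold lower in MDA-MB-231, and S100A10 1.52-fold higher.

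In the coagulation list of 28 genes, 13 could be tested, of which 1 was higher and 3 lower in MDA-MB-231 siGPX1, and 3 higher and 2 lower in Hs578T siGPX1. These counts stand beside the same shares of all genes, 20.7% higher and 21.9% lower in MDA-MB-231 and 28.6% and 22.1% in Hs578T. The median log2 change was -0.02 in MDA-MB-231 and 0.06 in Hs578T, near the 0.0 and 0.041 of all genes. Factor VII, the ligand of tissue factor, averaged at most 0.0357 CPM in any group, and factors IX and XI were at 0. Of the 4 protease-activated receptors listed, F2R and F2RL1 were measured well in both lines. F2RL2 averaged only 0.317 CPM in MDA-MB-231 siGPX1 and 0.424 CPM in MDA-MB-231 controls, and F2RL3 was at 0 in Hs578T. In MDA-MB-231, F2RL3 was low and 1.99-fold lower with depletion, at 1.7 CPM in siGPX1 libraries and 3.4 CPM in controls (edgeR adjusted p = 0.00706). F2R, the main thrombin receptor PAR1, averaged 71.5 ± 0.655 CPM in MDA-MB-231 siGPX1 libraries and 67.7 ± 0.661 CPM in MDA-MB-231 controls, a log2 change of 0.08 that did not pass (edgeR adjusted p = 0.328). In Hs578T it averaged 44.9 ± 3.86 CPM in siGPX1 libraries and 26.4 ± 1.21 CPM in controls (SD, n = 2 each), a rise of 1.70-fold (log2 change 0.76 ± 0.076, edgeR adjusted p = 5.17e-07).

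F2RL1, the receptor PAR2 through which tissue factor with factor VIIa signals, moved in opposite directions. It averaged 192 ± 0.381 CPM in MDA-MB-231 siGPX1 libraries and 232 ± 10.6 CPM in MDA-MB-231 controls, and 29.9 ± 3.45 CPM in Hs578T siGPX1 libraries and 21.2 ± 0.184 CPM in Hs578T controls (SD, n = 2 each). F2RL1 thus fell together with F3 in MDA-MB-231 (log2 change -0.27 ± 0.046, edgeR adjusted p = 0.000174) and rose while F3 fell in Hs578T (0.50 ± 0.086, edgeR adjusted p = 0.000158). The difference was -0.77 ± 0.097 for F2RL1 (edgeR adjusted p = 6.36e-05) and -0.68 ± 0.098 for F2R (edgeR adjusted p = 0.000202). PROS1, or protein S, a cofactor of activated protein C and of TFPI, rose 1.37-fold in MDA-MB-231 and 1.40-fold in Hs578T. PROCR, the receptor that presents protein C to thrombin bound to thrombomodulin, had a log2 change of 0.054 in MDA-MB-231 (edgeR adjusted p = 0.691) and 0.062 in Hs578T (edgeR adjusted p = 0.528), where THBD rose. MCFD2, which with LMAN1 carries factors V and VIII out of the endoplasmic reticulum, was 1.10-fold lower in Hs578T, and its call in MDA-MB-231 (-0.096 ± 0.034, edgeR adjusted p = 0.0351) was lost under most other settings.

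Between the controls, 7 of the 13 were higher and 6 lower in MDA-MB-231 than in Hs578T, where 43.0% of all genes were higher and 38.6% lower. F2RL1 was 10.9-fold and F2R 2.56-fold higher in MDA-MB-231, the line with more tissue factor, whereas F2RL2 was 34.3-fold and LMAN1 2.10-fold lower.

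**Figure D4:**
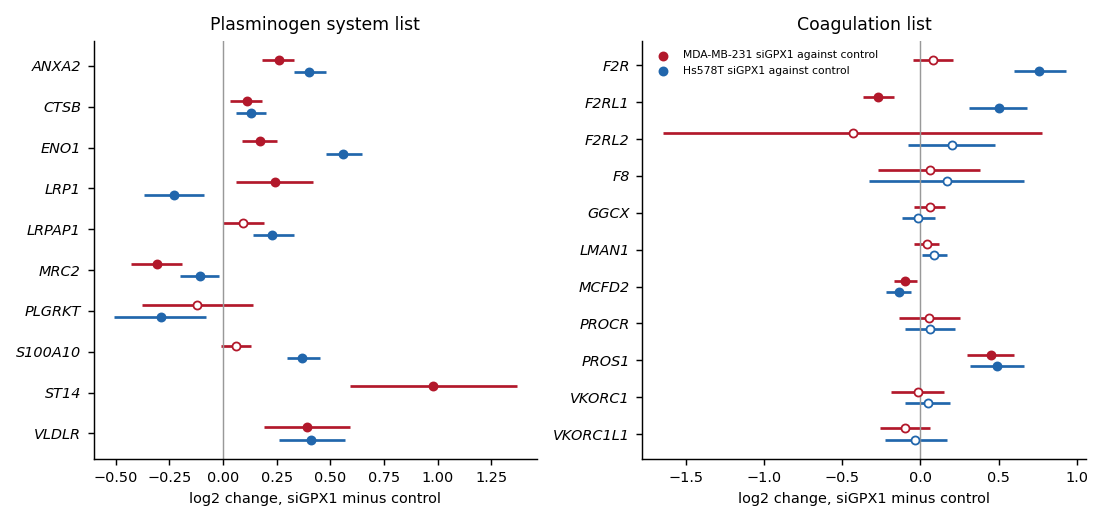
Log2 change with its 95% interval, siGPX1 minus control, for the 10 plasminogen system and 11 coagulation list genes that reached 5 CPM in at least 1 group; filled points passed at an adjusted p under 0.05. LRP1 and F2RL1 have filled points on both sides of 0, and ST14, at or near 0 in Hs578T, is drawn for MDA-MB-231 alone.

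The genes most like each member were found by the root mean square difference of log2(CPM + 1) over the 8 libraries, each gene centred on its mean, among 11294 genes, which describes these libraries and mainly the contrast of the lines. F3 was closest to BIRC3, at 0.0619, and to TNFRSF1B at 0.0717. PLAU was closest to NCSTN, at 0.0678, PLAT to ARHGEF3 at 0.0998, PLAUR to ZNF616 at 0.0881 and TFPI to PTPN13 at 0.0665. TFPI2 was closest to OGFRL1, at 0.0736, and SERPINE2 to CBS at 0.136. THBD had the most distant neighbours, C3 at 0.197 and CYP1B1 at 0.262. SERPINB2 was near DNPEP at 0.0859 on a scale that low counts compress. No member was among the 3 genes closest to another member.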

How the data were processed

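Total RNA of 8 libraries was quantified by the authors with RSEM 1.2.12 on hg19, with FastQC, per the submitters' processing notes; the aligner is not given in the sources used here. The deposited expected counts are estimated reads per gene, and between 94.7 and 94.9% of those above 0 were whole. TPM values, per the file headers, divide them by effective length. FPKM values were deposited by the authors and not used. Lengths are the deposited gene means in bases.

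Expected counts were rounded, filtered with filterByExpr (14249 genes kept), scaled by TMM and fitted with edgeR 4.0.16 (quasi-likelihood) on all 8 libraries with 1 mean per group. Calls were made at a Benjamini-Hochberg adjusted p under 0.05 over all genes. The biological coefficient of variation was 0.0342 and 4 residual degrees of freedom remained. Standard errors are the log2 change over the square root of F. Fits used R 4.3.3, and DESeq2 1.42.0 and limma 3.58.1 as alternatives. Other settings were other scaling and filters, log2 of TPM, a fold minimum, a replicate block and each library left out. Only the main edgeR fit was tested on simulated data, for siGPX1 against control in each line. The simulation gave all genes and groups the same biological variation, unlike these libraries. The alternatives and the other comparisons were not simulated.

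Members and lists were chosen with earlier results of these data known. The list genes named were up to 4 per list and comparison, by smallest p among those called with a mean of at least 5 CPM. PLG, PLGRKT, factors VII, IX and XI, F2RL3 and PROCR were named after their values were seen. Promoters are RefSeq windows (GRCh38.p14) and 3′ UTRs GENCODE 29; hg19 coordinates were not used.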

Additional observations from a re-analysis of the deposited data

Results flagged for a closer look

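For 5 of the 9 members the change after GPX1 depletion differed between the lines by the interaction test of edgeR's quasi-likelihood fit (1 higher and 4 lower, where 6.32% of all genes were higher and 10.7% lower). The difference, the log2 change in MDA-MB-231 minus that in Hs578T, compares folds and not amounts. It was -1.75 for THBD (-1.81 to -1.13 over the settings) and -0.49 for PLAT, which both rose by a larger fold in Hs578T. For PLAU, which fell by a larger fold in Hs578T, it was 0.52. It was -0.54 for PLAUR, lower in MDA-MB-231, and -0.38 for TFPI, higher in Hs578T. Among the list genes named, the difference was -0.77 for F2RL1 and 0.47 for LRP1, both of which passed in opposite directions in the lines, and -0.39 for ENO1, which rose in both and more in Hs578T. It was -0.68 for F2R and -0.31 for S100A10, which passed as higher in Hs578T and did not pass in MDA-MB-231.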

How the results depend on the processing

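Member calls of 6 in MDA-MB-231, 6 in Hs578T, 5 in the difference and 9 between the controls held their number within 1.5 times in all settings but the fold minimum of 1.5, which left 1, 3, 1 and 8. It also left 0, 2 and 0 list genes, in place of 11, 14 and 5, and 679, 1203, 91 and 6547 of all genes, in place of 6066, 7223, 2428 and 11629. DESeq2 called 1279 genes for the difference.

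With 1 library left out, members called numbered 5 to 6 in MDA-MB-231, 6 to 7 in Hs578T, 4 to 5 in the difference and 9 to 9 between the controls. List genes numbered 9 to 12, 12 to 13, 5 to 8 and 23 to 25, and all genes 4820 to 6632, 6044 to 6919, 1519 to 2737 and 11028 to 11962. The lone library of a group was assumed to vary like the rest. The replicate block left 6, 6, 5 and 9 members, and 6032, 7226, 2411 and 11032 genes; deviations of same-numbered libraries correlated at 0.0578 in MDA-MB-231 and -0.0679 in Hs578T, so numbers were not taken as pairs.

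No called member changed sign. Values that did not pass crossed 0 in these cases. TFPI in MDA-MB-231, at -0.0069, became 0.031 with DESeq2 size factors and with DESeq2, 0.0016 with no filter, 0.046 with the stricter filter, and -0.0018 to 0.052 with a library left out (0.051, 0.035, 0.035 and 0.052 without each MDA-MB-231 library). SERPINB2 in Hs578T became -0.067 without control replicate 2 and -0.057 without siGPX1 replicate 2 (leave-one-out range -0.067 to 0.40). The differences became -0.016 for SERPINE2 without Hs578T siGPX1 replicate 1 (range -0.016 to 0.15), -0.058 for F3 without Hs578T siGPX1 replicate 2 (-0.058 to 0.14), and for TFPI2 0.0017, 0.007 and 0.018 without Hs578T control replicate 1, Hs578T siGPX1 replicate 2 and MDA-MB-231 siGPX1 replicate 1 (-0.24 to 0.018). On the log2(TPM + 1) scale the median of all genes between the controls was 0.172, against 0.049, and the THBD rise in Hs578T was 1.51, against 2.14. The difference could not be fitted with each line alone. The causes were not tested. SERPINB2 rested on 4 to 23 counts per library.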
